A study of Canis lupus familiaris with 12 samples.

Results

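The miR-29 family was examined in CHMm, a dog cell line grown from a metastasis of a mammary gland tumor, and in CHMmTAM, the tamoxifen (TAM) resistant line derived from it. The family was taken as the 3 miRNAs named cfa-miR-29a, cfa-miR-29b and cfa-miR-29c, and all 3 were present among the 453 miRNAs listed. CHMmTAM had been selected over 10 months by raising the drug concentration until the cells grew in 10 μM TAM, was held at 10 μM for 1 month and was then kept without TAM for 1 week. CHMm was the parental line, and according to the labels all libraries came from cells grown in phenol-red-free DMEM with steroid-depleted serum. Small RNA was sequenced in 3 libraries of each line, and the counts of reads per miRNA were compared between the lines. The data hold 1 resistant line, so that resistance, prolonged culture and the selection of a subpopulation cannot be told apart. Nothing in the labels says that the libraries came from separate cultures, so the p-values measure the spread between these libraries, which may be technical.

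The members of the miR-29 family share their seed, the short stretch at the 5′ end with which a miRNA pairs with its target mRNAs, and they are nearly identical over the rest of their length. They are known as repressors of mRNAs for collagens and other extracellular matrix proteins and of the de novo DNA methyltransferases DNMT3A and DNMT3B. In mammals they are made from a pair of clusters, 1 holding miR-29a with a copy of miR-29b and the other holding miR-29c with a further copy of miR-29b. In the RefSeq genes of the dog assembly UU_Cfam_GSD_1.0, 5 genes carried the members' names. MIR29B-1 was next to MIR29A, and both lay within the span of the lncRNA LOC102155521. MIR29B-2 was next to MIR29C-2, and a further copy, MIR29C-1, was separated from them by the protein-coding gene LOC609365. The count table has 1 entry per mature name, so that the copies of miR-29b and of miR-29c could not be told apart. Names and neighbours only were taken from that assembly, since the labels name CanFam3.1.

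The libraries held between 7512659 and 12482211 counts, and miR-21 took between 50.2% and 54.5% of them. The miRNA markers of epithelium were plentiful, with a summed level between 25124 and 26471 CPM (counts relative to the size of the library) in CHMm and between 22450 and 23736 CPM in CHMmTAM. Of these 7 markers 3 rose, 2 fell and 2 did not pass the test, whereas with upper-quartile factors 0 rose and 4 fell. Those of fibroblasts and smooth muscle summed to between 39.7 and 47.6 CPM in CHMm and between 23.8 and 28.8 CPM in CHMmTAM, and 1 of the 4, miR-199, fell (2 with upper-quartile factors). Those of blood summed to between 4.81 and 6.02 CPM in CHMm and between 11.5 and 14.9 CPM in CHMmTAM (2 of 4 tested markers rose, 1 with upper-quartile factors). Those of muscle summed to between 277 and 314 CPM in CHMm and between 418 and 431 CPM in CHMmTAM (4 of 4 tested markers rose), most of it miR-499. On the log2 scale miR-499 rose by 0.48, whereas the rarer miR-1 and miR-133a rose by 2.19 and 2.11. The blood marker miR-486 rose by 2.40, from 1.09 to 5.54 CPM. Over all 284 tested miRNAs 72 rose and 53 fell, against 41 and 100 with upper-quartile factors. miR-208a had no count in any library, and miR-206 and miR-144 had at most 3 counts. The part of these shifts in the values of miR-29 was not tested.

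The miR-29 family was slightly less abundant in CHMmTAM than in CHMm. miR-29a, which made up almost the whole family, fell by 0.17 on the log2 scale, and miR-29c, the rarest member, fell by 0.44. miR-29b was at -0.12 and did not pass the test. None of the 3 reached a 2-fold change. These values come from edgeR's quasi-likelihood test on counts scaled by the TMM method, with p-values adjusted by the Benjamini-Hochberg method (FDR) over the 284 miRNAs tested. All 3 members passed the filter of at least 10 counts in total over the 6 libraries.

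miR-29a was counted 107424, 162155 and 122807 times in CHMm replicates 1, 2 and 3 and 155573, 139846 and 102328 times in CHMmTAM replicates 1, 2 and 3. After scaling, these counts correspond to 14689, 13961 and 13727 CPM in CHMm and to 12179, 12678 and 12856 CPM in CHMmTAM. The lines did not overlap, and the highest CHMmTAM library lay 6.34% below the lowest CHMm library. The mean level was 14126 ± 502 CPM in the parental and 12571 ± 351 CPM in the resistant line (SD, n = 3), 0.890 of the parental level with a 95% interval from 0.817 to 0.970. The log2 fold change of -0.17 had a standard error of 0.06 and an FDR of 0.0196. This call depended on single libraries, since the FDR was 0.0729 without CHMm replicate 1, 0.0527 without CHMm replicate 2 and 0.151 without CHMmTAM replicate 1. With upper-quartile factors the log2 fold change was -0.41, outside the interval above.

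miR-29b, which is known for its enrichment in the nucleus of some cells, was counted between 3996 and 6723 times per library. Its levels were 546, 579 and 548 CPM in CHMm and 472, 542 and 522 CPM in CHMmTAM. All CHMmTAM libraries were below all CHMm libraries, but CHMmTAM replicate 2 was only 0.730% below CHMm replicate 1. As a plain share of all counts, without TMM factors, the order of these libraries was the opposite, with 541 CPM in CHMmTAM replicate 2 and 532 CPM in CHMm replicate 1. The mean level was 558 ± 18.1 CPM in the parental and 512 ± 36.3 CPM in the resistant line (SD, n = 3). The log2 fold change of -0.12 (standard error 0.07, FDR = 0.147) corresponds to 0.917 of the parental level, with a 95% interval from 0.833 to 1.01. This interval holds no difference as well as a decrease of the size seen in miR-29a. Under RLE size factors (FDR = 0.0164), upper-quartile factors (FDR = 8.38e-06) and the DESeq2 Wald test (FDR = 0.0115), the same counts passed the FDR threshold. In the other direction, the log2 fold change was -0.05 (FDR = 0.660) without CHMmTAM replicate 1 and -0.08 (FDR = 0.424) without CHMm replicate 2.

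miR-29c was counted 235, 363 and 258 times in CHMm and 297, 256 and 170 times in CHMmTAM. These counts correspond to 32.1, 31.3 and 28.8 CPM in CHMm and to 23.3, 23.2 and 21.4 CPM in CHMmTAM. The lines did not overlap, and the gap between the lowest CHMm and the highest CHMmTAM library was 19.4% of the former, the widest of the 3 members. The mean level was 30.7 ± 1.71 CPM in the parental and 22.6 ± 1.08 CPM in the resistant line (SD, n = 3), 0.739 of the parental level with a 95% interval from 0.634 to 0.860. The log2 fold change of -0.44 had a standard error of 0.11 and an FDR of 0.00033. With each library left out in turn it was between -0.48 and -0.39, and the FDR was at most 0.0105. The counts of miR-29c are low enough that single libraries are less certain than their mean. The 95% Wilson intervals of the share of all counts, which cover counting error only, were 25.9 to 33.1 CPM in CHMm replicate 3 and 21.2 to 26.7 CPM in CHMmTAM replicate 1, and these overlapped.

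**Figure D1:**
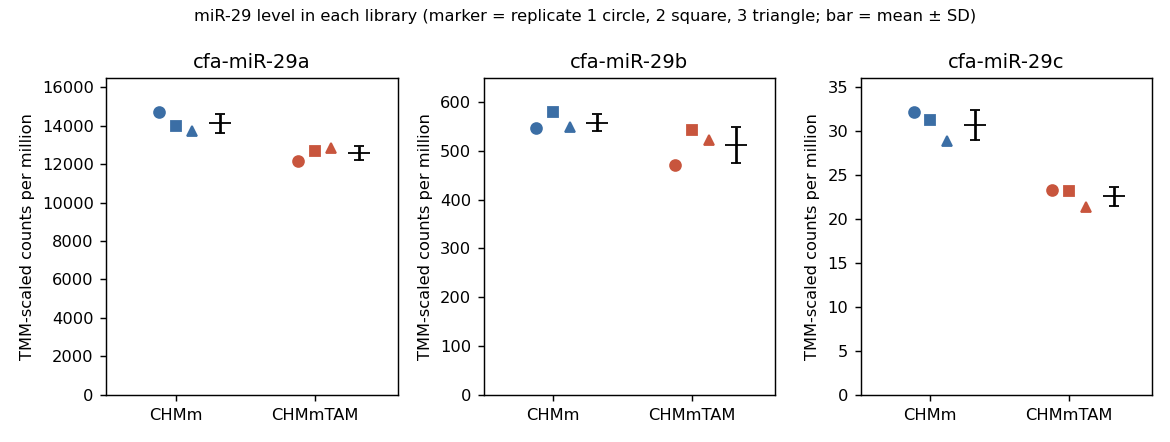
TMM-scaled CPM (vertical axes, each from 0) of cfa-miR-29a, cfa-miR-29b and cfa-miR-29c in the 3 CHMm and 3 CHMmTAM libraries, with circles, squares and triangles for replicates 1, 2 and 3 and the mean ± SD beside them. The lines are separated by a gap for miR-29a and miR-29c, whereas for miR-29b the highest CHMmTAM library (542 CPM) almost reaches the lowest CHMm library (546 CPM).

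In total 2 of the 3 members passed an FDR of 0.05, both lower in CHMmTAM. Of all tested miRNAs 44.0% passed this threshold and 18.7% passed it with a lower level in CHMmTAM. The tested miRNAs include some with few counts, which pass less readily than the members. In the fit limited to the 196 miRNAs with at least 10 counts in every library, 127 passed, 58 of them with a lower level in CHMmTAM. There miR-29a and miR-29c passed and miR-29b did not. No member passed the threshold of the study, which also asks for a log2 fold change above 1 or below -1 and was met by 11.3% of the tested miRNAs. The 3 libraries of CHMmTAM were all below the 3 of CHMm for 3 of 3 members, as for 22.9% of the tested miRNAs, and the lines failed to overlap in either direction for 51.8%. For miR-29b this holds with TMM factors but not for the plain share of all counts. Differences of this size were common in the data. The absolute log2 fold change was smaller than that of miR-29a in 27.1% of the tested miRNAs, smaller than that of miR-29b in 20.1% and smaller than that of miR-29c in 51.8%. These shares also cover miRNAs with few counts, whose fold changes can be large through counting error alone.

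**Figure D2:**
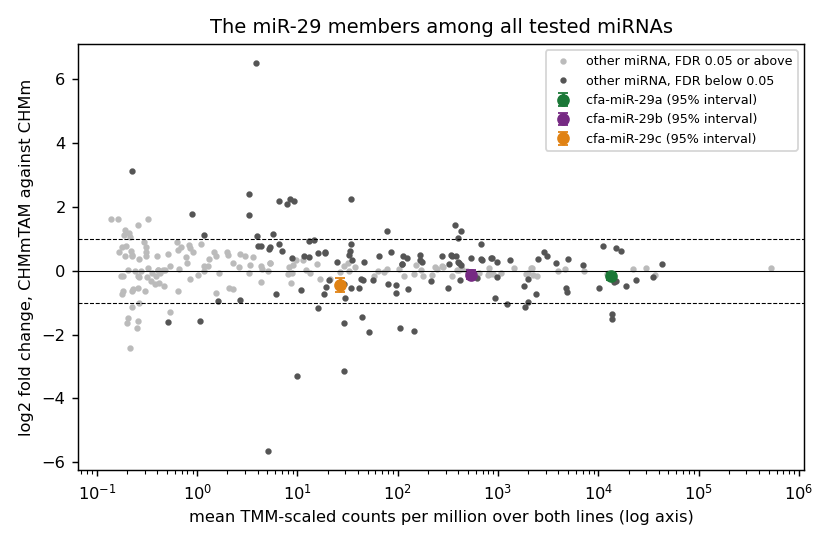
Log2 fold change between CHMmTAM and CHMm (vertical axis) against the mean TMM-scaled CPM over both lines (horizontal log axis) for the 284 tested miRNAs, with dark points below an FDR of 0.05, dashed lines at a 2-fold change and 95% intervals for the miR-29 members. The 3 members lie between 0 and -1, at log2 fold changes of -0.17, -0.12 and -0.44, within the range of most other miRNAs of similar abundance.

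The members differed far more in abundance than between the lines. miR-29a ranked 13 to 15 of all listed miRNAs in the 6 libraries, miR-29b ranked 61 to 71 and miR-29c ranked 130 to 138. In CHMm the mean level of miR-29a was 25.3 times that of miR-29b and 459 times that of miR-29c, and in CHMmTAM it was 24.6 times and 556 times. These are counts per mature miRNA on the CPM scale, and how efficiently each sequence enters a small RNA library was not measured. miR-29a made up 96.0% ± 0.20 (SD, n = 3) of the family counts in CHMm and 95.9% ± 0.18 in CHMmTAM, which overlapped. The share of miR-29b was 3.80% ± 0.20 in CHMm and 3.90% ± 0.19 in CHMmTAM, and these overlapped as well. The share of miR-29c was 0.209% ± 0.0066 in CHMm and 0.173% ± 0.0122 in CHMmTAM, without overlap. Together the members took 1.49%, 1.48% and 1.45% of all counts in CHMm replicates 1, 2 and 3 and 1.30%, 1.32% and 1.31% in CHMmTAM.

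With the 3 members summed, a read moved from 1 member to another does not change the total. Reads dropped or counted more than once because they match several sequences would change it, and their handling is not given. The sum was 14684 ± 588 CPM in the parental and 13135 ± 370 CPM in the resistant line (SD, n = 3), without overlap. It fell by 0.16 on the log2 scale (standard error 0.07, FDR = 0.0330), and the 95% interval of the fold was from 0.818 to 0.978. With RLE factors it was at -0.24, and with upper-quartile factors at -0.40, the latter outside that interval. As for miR-29a, the call was lost without CHMm replicate 1 (FDR = 0.142), CHMm replicate 2 (FDR = 0.103) or CHMmTAM replicate 1 (FDR = 0.0948).

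The ratio between members within a library does not depend on scaling, and it was used to ask whether the members moved by the same amount. miR-29c was lower relative to both other members in each CHMmTAM library than in each CHMm library, whereas the ratio of miR-29a to miR-29b overlapped between the lines. For each count of miR-29c there were 457, 447 and 476 counts of miR-29a in CHMm replicates 1, 2 and 3 and 524, 546 and 602 in CHMmTAM. All CHMmTAM libraries were above all CHMm libraries, and the log2 ratio was 8.84 ± 0.05 (SD, n = 3) in CHMm and 9.12 ± 0.10 in CHMmTAM, a difference of 0.28 (standard error 0.07). For each count of miR-29c there were 17.0, 18.5 and 19.0 counts of miR-29b in CHMm and 20.3, 23.4 and 24.4 in CHMmTAM. Here too the lines did not overlap, with a difference in the log2 ratio of 0.32 (standard error 0.09). Both ratios hold miR-29c, so they are not separate observations. How often the ratios of other pairs of miRNAs fail to overlap was not counted. Of single tested miRNAs 51.8% did not overlap. For each count of miR-29b there were 26.9, 24.1 and 25.0 counts of miR-29a in CHMm and 25.8, 23.4 and 24.6 in CHMmTAM. These overlapped, and the log2 ratio differed by -0.04 (standard error 0.06). The exact two-sided permutation test gave p = 0.1 for each ratio to miR-29c and p = 0.5 for the ratio of miR-29a to miR-29b, or 0.15 and 0.5 after Benjamini-Hochberg adjustment over the 3 pairs. With 3 libraries against 3 this test cannot give a p below 0.1, so that no pair can pass a threshold of 0.05. As miR-29c had so few counts beside miR-29a, a small share of miR-29a reads assigned to miR-29c would weigh on these ratios, and that share was not measured.

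**Figure D3:**
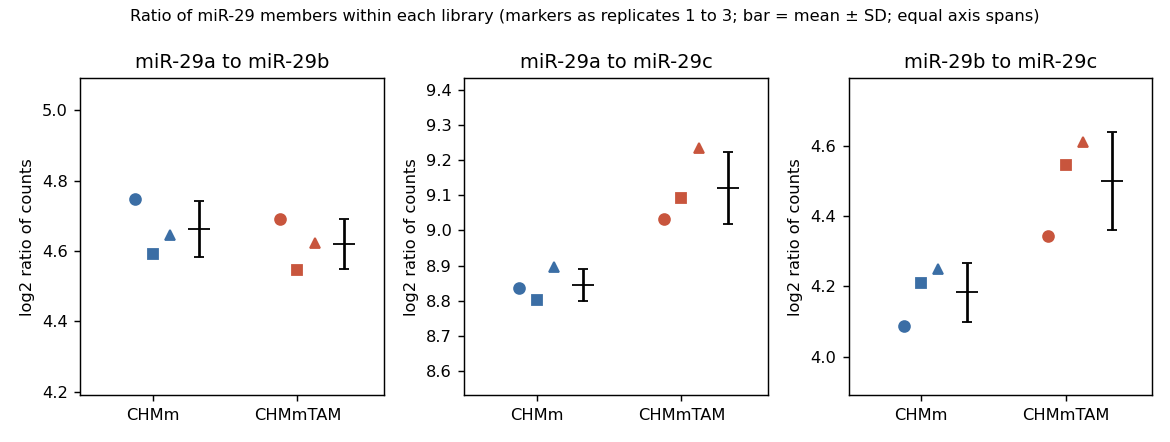
Log2 ratio of the counts of each pair of miR-29 members within a library (vertical axes, of equal span), for the 3 CHMm and 3 CHMmTAM libraries, with the mean ± SD beside the points. The ratios of miR-29a and of miR-29b to miR-29c are higher in each CHMmTAM library than in each CHMm library, by 0.28 and 0.32 on average, and the ratio of miR-29a to miR-29b overlaps.

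The spread between libraries of a line was small. The coefficient of variation of the scaled level was 3.55% in CHMm and 2.79% in CHMmTAM for miR-29a, 3.25% and 7.10% for miR-29b, and 5.55% and 4.78% for miR-29c. The medians over the 117 miRNAs above 50 CPM were 4.50% and 5.48%. For miR-29c, counting error alone reached 6.52% in the smallest library count of CHMm and 7.67% in that of CHMmTAM. For miR-29a it was at most 0.313%.

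The fold changes are relative to the scaling. Over 5 scalings of the libraries, the log2 fold change was between -0.41 and -0.17 for miR-29a, between -0.37 and -0.12 for miR-29b and between -0.68 and -0.44 for miR-29c. The lowest values came from upper-quartile factors, which moved the median of all tested miRNAs from 0.06 to -0.18. A change of scaling moves all miRNAs by nearly the same amount, so that the values relative to the median, -0.23 for miR-29a, from -0.19 to -0.18 for miR-29b and -0.50 for miR-29c, stay the same by construction. With TMM 72 miRNAs passed the FDR threshold with a higher and 53 with a lower level in CHMmTAM, against 64 and 73 with RLE factors, 41 and 100 with upper-quartile factors and 60 and 66 with the DESeq2 Wald test.

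**Figure D4:**
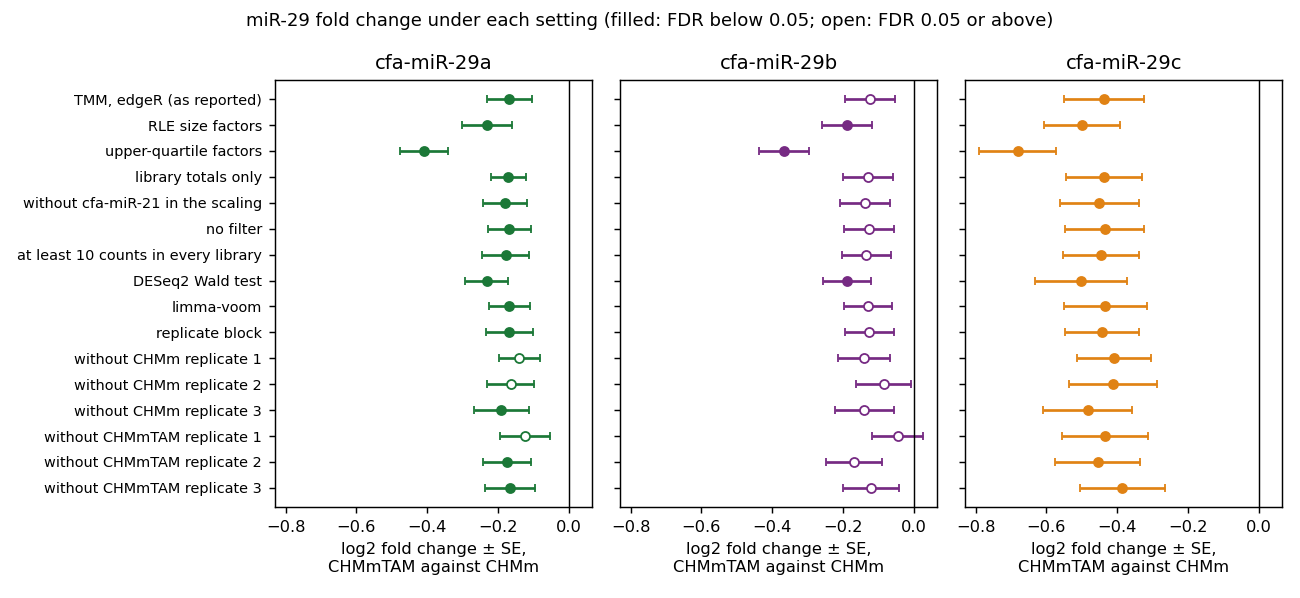
Log2 fold change ± standard error between CHMmTAM and CHMm (horizontal axes) of cfa-miR-29a, cfa-miR-29b and cfa-miR-29c as reported and under 15 other settings (rows), with filled points below an FDR of 0.05 and open points at or above it. miR-29c is filled in each row, miR-29a is open in 3 of the fits without a library, and miR-29b is filled with RLE factors, upper-quartile factors and the DESeq2 Wald test only.

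Other miRNAs known to repress DNA methyltransferases moved in both directions. Of 8 such miRNAs 7 were tested, of which 4 rose, 2 fell and 1 did not pass. Of all tested miRNAs 44.0% passed, and 18.7% passed with a lower level in CHMmTAM. These shares and the calls before them are with TMM factors. With upper-quartile factors 1 miRNA of the list rose, 2 fell and 4 did not pass, where 41 rose and 100 fell among all 284 tested miRNAs. The median log2 fold change of the list was 0.33 with TMM and 0.09 with upper-quartile factors, against 0.06 and -0.18 over all tested miRNAs. The 2 that fell, miR-148a and miR-152, are close relatives of miR-148b, and this family is known to repress DNMT1, the maintenance methyltransferase. The relative miR-148b, also on the list, rose instead, by 0.33 on the log2 scale (standard error 0.07, FDR = 5.13e-06), so the family did not move in 1 direction. With upper-quartile factors miR-148b was at 0.09 and did not pass (FDR = 0.348). miR-148a, the most abundant of the list, fell from 21955 ± 825 CPM (SD, n = 3) to 15892 ± 1130 CPM, by 0.47 on the log2 scale (standard error 0.06, FDR = 1.85e-12). miR-152 fell from 17.9 ± 1.37 CPM to 1.78 ± 0.470 CPM. miR-342 rose from 24.8 ± 4.52 CPM to 43.9 ± 4.21 CPM, by 0.83 on the log2 scale (standard error 0.11, FDR = 6.68e-14). miR-185 rose by 0.34 (standard error 0.07, FDR = 5.37e-06), but with upper-quartile factors it was at 0.10 and did not pass (FDR = 0.286). miR-126 was not tested, since no library held more than 3 counts of it.

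Of 18 miRNAs known from fibrosis and the control of matrix genes, all were tested, 6 rose, 4 fell and 8 did not pass, beside the 44.0% of all tested miRNAs that passed and the 18.7% that passed with a lower level in CHMmTAM. With upper-quartile factors 2 rose, 10 fell and 6 did not pass, where 41 rose and 100 fell among all 284 tested miRNAs. Their median log2 fold change was -0.08 with TMM and -0.32 with upper-quartile factors, again against 0.06 and -0.18. miR-155, known from inflammation, fell from 2957 ± 122 CPM (SD, n = 3) to 1787 ± 62.5 CPM, by 0.73 on the log2 scale (standard error 0.07, FDR = 1.19e-25). miR-199 fell from 37.8 ± 2.58 CPM to 21.2 ± 2.53 CPM. An increase from 2.94 ± 0.197 CPM to 12.8 ± 2.48 CPM was seen for miR-133a, and miR-133b, at no more than 16 counts in a library, rose by 1.79 on the log2 scale (standard error 0.54, FDR = 0.00293). The mRNAs of collagens and DNA methyltransferases were not analysed here.

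The miRNAs whose levels followed each member most closely were sought among the 156 others with a mean of at least 10 CPM, by Pearson's r of the log2 CPM over the 6 libraries. As the libraries fall into the 2 lines, r is given as a description. For miR-29a these were miR-450b (r = 0.985), miR-331 (r = 0.959) and miR-362 (r = 0.955). For miR-29b they were miR-27b (r = 0.950), miR-1306 (r = 0.937) and miR-9 (r = 0.914). For miR-29c they were miR-128 (r = 0.978), miR-205 (r = 0.978) and miR-184 (r = 0.975), whose log2 fold changes of -0.86, -0.66 and -3.13 exceeded that of miR-29c. The members were not each other's closest matches. Between miR-29a and miR-29b r was 0.745, between miR-29a and miR-29c 0.903 and between miR-29b and miR-29c 0.647.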

How the data were processed

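The authors extracted total RNA, purified miRNA and sequenced it on the HiSeq platform. They deposited raw counts of reads per miRNA name, with 1 column per library and without normalization. The submitters' processing notes list CanFam3.1, HISAT2 2.0.4 and BWA without saying which served the small RNA. The miRNA database, trimming, allowed mismatches and the handling of multi-mapping reads are not given in the sources used here, and each could move counts among the miR-29 members. The 6 RNA-seq libraries were not analysed here.

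Libraries were assigned to lines by their labels. Of 453 miRNAs, the 284 whose counts summed to 10 or more were kept, scaled by TMM and compared by the quasi-likelihood test of edgeR 4.0.16 in R 4.3.3, without a block, with Benjamini-Hochberg adjustment. The study states its thresholds for the sequencing but no test. With the DESeq2 Wald test 29 miRNAs passed both of its thresholds, 14 higher and 15 lower in CHMmTAM, the same numbers as the study reports. The quasi-likelihood test gave 32. CPM values use TMM factors unless given as a share of all counts. Intervals of shares are 95% Wilson intervals. At these depths 3 counts correspond to between 0.24 and 0.399 CPM. Libraries of the same line differed beyond counting noise (chi-square divided by its degrees of freedom, 26.3 to 85.8), so none was treated as a copy of another. Separate preparations of the same culture would differ in this way too. Ratios were compared by exact permutation with SciPy 1.17.1. The fit was tested on simulated data. The changes planted there were all larger than those of the members, so changes of the members' size were not covered.

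The members, the lists of other miRNAs and the tests were chosen with earlier results of these data known. Named miRNAs were the members, those of the lists with the larger changes, the 3 closest to each member by r and the neighbours in abundance. Beside miR-148a and miR-152, miR-148b was named as their relative. Naming miRNAs by a shared seed was not done, since mature sequences were not used here. Alternatives were RLE and upper-quartile factors, library totals, scaling without miR-21, no filter, at least 10 counts in every library, DESeq2 1.42.0, limma-voom (limma 3.58.1), a replicate block, each library left out, FDR alone, and 1 count added in the ratios.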

Additional observations from a re-analysis of the deposited data

How the results depend on the processing

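All 15 alternatives gave a lower level in CHMmTAM for each of the 3 members and for their sum. The log2 fold change of miR-29c stayed past the FDR threshold in each of them, from -0.68 to -0.39. miR-29b passed the threshold at -0.19 with RLE factors, at -0.37 with upper-quartile factors and at -0.19 with the DESeq2 Wald test. With each library left out in turn, the log2 fold change was between -0.19 and -0.12 for miR-29a and between -0.19 and -0.12 for the sum, and for both the call was lost in 3 of the 6 fits; it was between -0.17 and -0.05 for miR-29b, which passed in none. The numbers of miRNAs past FDR alone (114 to 126) and past both thresholds (30 to 34) changed little in these fits, and without the fold threshold 125 passed in place of 32. When a library was left out, the difference in the log2 ratio was from 0.22 to 0.32 for miR-29a to miR-29c, from 0.26 to 0.40 for miR-29b to miR-29c and from -0.08 to 0.00111 for miR-29a to miR-29b. With the replicate number as a block, the FDR was 0.0260 for miR-29a, 0.135 for miR-29b and 9.73e-05 for miR-29c, and 126 miRNAs passed, so that the pairing changed no call of a member. Same-numbered libraries deviated from their line means with correlations of 0.06, 0.46 and -0.31 for replicates 1, 2 and 3, and CHMm replicates 1 and 3 correlated best with another number, so the numbers were not read as pairs. The cause of these shifts was not tested. The lowest depth was that of miR-29c, at 170 to 363 counts per library.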

Other observations

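The miRNAs nearest to each member in mean abundance moved in different ways. Next above miR-29a were miR-221 and miR-222, a cluster expressed in many basal-like tumor cells, which fell by 1.52 and 1.36 on the log2 scale (standard error 0.06 for each, FDR = 8.79e-98 and 1.86e-82 from edgeR's quasi-likelihood test). They were at 20182 ± 1297 and 19498 ± 726 CPM (SD, n = 3) in CHMm, above miR-29a, and at 7041 ± 177 and 7573 ± 385 CPM in CHMmTAM, below it. Next below miR-29a were miR-200c and miR-30d, at log2 fold changes of -0.06 and -0.10, which did not pass the test with TMM factors but fell with upper-quartile factors (-0.30 and -0.34). miR-30a, close to miR-29b in abundance, rose by a log2 fold change of 0.39 (FDR = 2.08e-07), or 0.15 with upper-quartile factors (FDR = 0.0804), and miR-497, close to miR-29c, fell from 33.2 ± 1.38 to 25.0 ± 2.20 CPM, a log2 fold change of -0.41 (FDR = 0.000586). Of the others, let-7c fell by 0.21 on the log2 scale (FDR = 0.00659) and miR-1296 rose by 0.29 (FDR = 0.0256) with TMM factors, and miR-23a, miR-1271, miR-769 and miR-671 did not pass the test.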
